A study of Homo sapiens with 4 samples.

Results

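Of the 564 gene models with a numbered ZNF symbol among the 57820 models of the series, 353 had a mean of at least 3 transcripts-per-million (TPM, a level scaled for transcript length) over the 4 libraries and are described here as the expressed ZNF genes. They were chosen by their symbol and by this level, so that the levels below are a description. Neither criterion uses the comparison between the groups, but the choice was made with earlier results of these data known. The RNA came from G401, an established line of SMARCB1-deficient kidney rhabdoid tumour cells, grown in DMEM with serum. Of the 4 libraries, 2 were of cells with a CRISPR-Cas9 knockout of BRD9 (BRD9 KO, replicates 1 and 2) and 2 of cells with the LacZ control (replicates 1 and 2). The loss of SMARCB1 is shared by both groups. By the methods, guides were delivered by lentivirus into Cas9-expressing cells that were then selected with puromycin, and the study recovered no clone of the line without the protein. The labels do not say whether these libraries came from such a mixed, selected population, and the time of harvest after editing is not given for them in the sources used here. In bulk RNA, fewer knockout cells and less RNA per cell cannot be told apart. BRD9 is a bromodomain subunit of a SWI/SNF chromatin remodelling complex without SMARCB1, and the comparison asks how its loss changes gene expression in these cells.

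ZNF genes encode proteins with zinc fingers, short loops folded around a zinc ion, most of them of the C2H2 type, which lie in tandem arrays and read DNA or RNA bases. The largest subgroup carries a KRAB domain at its amino end, through which the bound protein TRIM28 brings the histone methyltransferase SETDB1, HP1 proteins and histone deacetylases to transposable elements and other target sites. KRAB zinc finger genes arose by repeated tandem duplication and stand in clusters, above all on chromosome 19. ZNF genes without KRAB are more diverse, and include activators, RNA-binding proteins, ribosome factors and spindle proteins.

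The libraries held between 15053247 and 19559290 estimated counts each. SMARCB1 had 0 counts in all 4 libraries. The BRD9 transcript was at 29.4 and 26.8 counts-per-million (CPM) in the BRD9 KO libraries and at 48.2 and 53.8 CPM in the LacZ controls. The log2 fold change came to -0.86, with an SE (standard error) of 0.07 and an adjusted p of 2.84e-09 in the quasi-likelihood test of edgeR. Cas9 cuts alter the coding sequence, and transcript left over says little about protein left over.

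Most expressed ZNF genes were transcribed at low levels. Their mean TPM ran from 3.03 to 319.5 with a median of 9.58. Of the 353 genes, 182 lay under 10 TPM, 30 reached 30 TPM and 3 reached 100 TPM. ZNF106, which encodes an RNA-binding protein, was the most abundant by level, with TPM values of 362.4 and 370.9 in the BRD9 KO libraries and 271.1 and 273.5 in the controls. ZNF207, whose protein binds the spindle checkpoint protein BUB3, followed at a mean of 159.9 TPM, and ZNF706 at 101.3 TPM. ZNF217, an oncogene whose protein joins corepressor complexes, ZNF638, which encodes an RNA- and DNA-binding nuclear protein, and ZNF326, which encodes a splicing factor of the DBIRD complex, had mean levels of 99.2, 97.9 and 83.2 TPM. Just inside the limit of 3 TPM lay ZNF81 (3.03), ZNF426 (3.07) and ZNF805 (3.12), and just outside it ZNF837 (2.95), ZNF607 (2.88) and ZNF669 (2.84). Of the 211 ZNF models under the limit, 161 lay under 1 TPM and 66 were listed at 0 in all 4 libraries.

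The summed level of the 353 genes was slightly higher in both BRD9 KO libraries. It came to 5452.2 and 5437.5 TPM in BRD9 KO replicates 1 and 2 against 5222.3 and 5190.8 TPM in LacZ control replicates 1 and 2. Without ZNF106 the sums were 5089.8 and 5066.6 TPM against 4951.2 and 4917.2 TPM, so that both knockout libraries still stood above both controls. The genes of the KRAB class defined below summed to 2176.3 and 2141.7 TPM against 2096.4 and 2051.3 TPM. The median level of the 353 genes, in contrast, overlapped between the groups, at 9.64 and 9.94 TPM against 9.31 and 9.83 TPM.

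The encoded proteins were sorted by features counted in translated coding transcripts. A coding model was found for 341 of the 353 genes. In 209 of them the protein matched a KRAB profile, and these KRAB proteins had a median of 12 C2H2 fingers, while the 132 proteins without a match had a median of 7. The profile covers the canonical KRAB A box in 21 positions and needs 14 matching ones. A further 28 proteins matched 9 to 13 positions, so that divergent KRAB boxes may stand among the unmatched. ZNF79, ZNF202, ZNF263 and ZNF473, known as KRAB proteins, are among these 28 and are counted here without a match. A SCAN domain, which pairs zinc finger proteins with each other, was found in 11 proteins, 7 of them without a KRAB match. It was searched with a fixed letter pattern, so that SCAN domains with other letters may have been missed. ZNF142 had the most fingers, 36. The annotation classed 7 members as pseudogenes, and 5 found no matching gene model in it. The KRAB class was expressed at lower levels, with a median of 7.83 TPM against 13.9 TPM without a KRAB match.

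The promoters of expressed ZNF genes often held the core of the ETS motif. RefSeq promoters, from 250 bases before to 50 bases after the annotated start on GRCh38.p14, matched 305 of the 353 genes by symbol. The letters CCGGAAG occurred on either strand in 127 of these, or 41.6%, against 20.9% of the 8442 promoters of all genes with at least 3 TPM that matched and 10.7% of all 27305 promoters. Among the genes with a KRAB match the share was 47.6%, and among those without 32.8%. CCAAT was found in 48.2% of the ZNF promoters and 37.2% of those of all genes with at least 3 TPM, whereas GGGCGG was found in 64.9% and 72.2%. TGACGTCA, the cAMP response element, was found in 4.6% and 3.5%, AAGATGGCG, a YY1 motif, in 3.3% and 4.6%, TGCGCATG, an NRF1 motif, in 5.2% and 4.0%, and TATAAA in 3.9% and 4.7%. The median GC content was 62.0% for the ZNF promoters and 65.7% for those of all genes with at least 3 TPM. Promoters of one cluster can be copies of each other, and a match of letters is not a binding site.

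Windows of 30 bases before the start are given for the members with the largest changes or highest levels whose promoter held the ETS letters, 3 that rose, 2 that fell and 1 that did not pass the test, to show the motif where it stands in genes that moved in different directions. Capitals mark CCGGAAG or its reverse complement, and each window reads 5′ to 3′ on the strand of the gene.
ZNF79 (rose, plus strand, chr9:127424352-127424381, motif 14 bases before the start): gggcatgtgcgcatgaCCGGAAGtggcgcc
ZNF239 (rose, minus strand, chr10:43574639-43574668, 40 bases before): caggggcccgcgCCGGAAGtgggcgtggtt
ZNF267 (rose, plus strand, chr16:31873761-31873790, 34 bases before): gagcaggggcggCTTCCGGgatttggcggg
ZNF519 (fell, minus strand, chr18:14132441-14132470, 23 bases before): aggaaggggcggCTTCCGGaatctggcgcg
ZNF548 (fell, plus strand, chr19:57389727-57389756, 115 bases before): tctaagacaagtCCGGAAGcggtgtcgaaa
ZNF638 (did not pass, plus strand, chr2:71331644-71331673, 126 bases before): gcgggagcgcccCTTCCGGgagcccgctcc
The ETS letters stood at similar shares in members that rose, fell or were not called. They occurred in 22 of 53 matched promoters of members called higher (41.5%), in 12 of 30 called lower (40%) and in 93 of 222 not called (41.9%). GGGCGG stood in 24 of 30 promoters of members called lower (80.0%), in 31 of 53 called higher (58.5%) and in 143 of 222 not called (64.4%). Of the promoters of all genes with at least 3 TPM, 72.2% held it. The median number of CpG dinucleotides per promoter was 30 in members called lower, 24 in those called higher and 22 in the rest. GGGCGG was singled out among the letters counted, and these differences were not tested.

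Knockout of BRD9 was accompanied by small changes of ZNF transcripts, more of them upward. All 353 genes passed the filter on low counts and were tested among 15288 genes. At an adjusted p under 0.05 (edgeR), 63 were higher in BRD9 KO, 34 were lower and 256 were not called. The share called, 27.5%, lay below the background: 38.6% of all tested genes were called, 20.5% higher and 18.1% lower, and 43.8% of the tested genes with at least 3 TPM were called, 24.0% higher and 19.9% lower. In every called member both knockout libraries lay on the same side of both controls. Over all 353 genes the groups did not overlap in 227 (64.3%), against 71.9% of the tested genes with at least 3 TPM. The median log2 fold change of the 353 genes was 0.03, against 0.01 for all tested genes with at least 3 TPM, and 57.5% of the values were above 0, against 51.8% of those genes. The values ran from -0.90 to 0.67, so that no member changed 2-fold, and 89 of the 97 called members (91.8%) changed by less than 1.5-fold, as did 88.8% of all called genes with at least 3 TPM. With DESeq2 30 members were called higher and 9 lower, 11% of the members against 26.3% of the genes with at least 3 TPM, and with limma on log2(TPM + 1) 17 and 10, 7.65% against 18.6%. The edgeR counts were 49 higher and 18 lower without BRD9 KO replicate 1, 42 and 16 without LacZ control replicate 1, and 39 and 15 without LacZ control replicate 2.

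**Figure D1:**
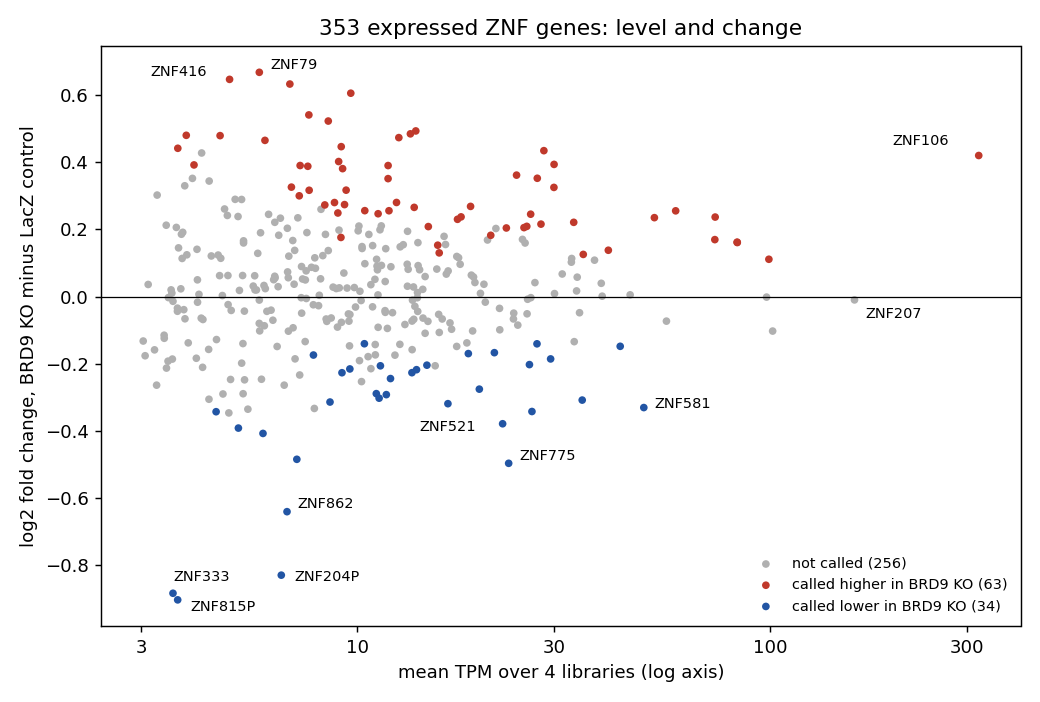
Each point is 1 of the 353 expressed ZNF genes, with its mean TPM over the 4 libraries on the x axis (log scale) and its log2 fold change, BRD9 KO minus LacZ control, on the y axis, coloured by the edgeR call. The 63 red and 34 blue points lie between -0.90 and 0.67, and ZNF106 stands alone at 319.5 TPM with a value of 0.42.

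The share of members called rose with their read counts, as it did for other genes. Among members with a mean count under 200, 13 were called higher and 9 lower of 134, or 16.4%, against 23.7% of the tested genes with at least 3 TPM in that band. Between 200 and 500 counts it was 22 and 10 of 133, or 24.1% against 36.1%, and from 500 counts 28 and 15 of 86, or 50% against 55.5%. The shares called higher were close to the background in each band, at 9.7%, 16.5% and 32.6% against 8.9%, 17.8% and 32.9%. The shares called lower were smaller, at 6.7%, 7.5% and 17.4% against 14.9%, 18.2% and 22.6%. These differences between the members and the background were not tested. The members had a median mean count of 257.5 and a median SE of 0.09 on the log2 scale, against 572.9 and 0.06 for all tested genes with at least 3 TPM. In bands of level, 20.3% of the members from 3 to 10 TPM were called against 27.6% of the tested genes, 32.6% against 39.4% from 10 to 30 TPM, and 46.7% against 56.4% from 30 TPM.

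**Figure D2:**
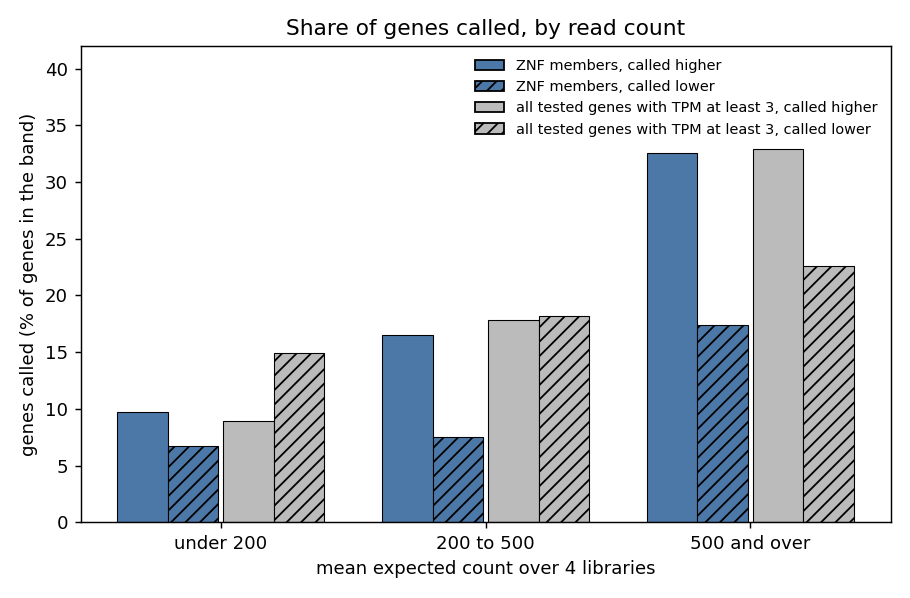
The bars give the percentage of genes called higher (plain) and lower (hatched) in BRD9 KO, in 3 bands of mean expected count, for the expressed ZNF genes (blue) and for all tested genes with at least 3 TPM (grey), the ZNF genes included. The plain bars of both sets have similar heights in each band, and the hatched blue bars, at 6.7%, 7.5% and 17.4%, are lower than the grey ones.

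The largest rises were found in genes of low level on several chromosomes. All 10 members with an absolute log2 fold change of at least 0.5, rises and falls, had a mean level from 3 to 10 TPM. The median SE of the members was 0.12 in that band, against 0.07 from 10 to 30 TPM and 0.04 from 30 TPM, so that the size of such changes is less certain. The rises and falls named here had to be called with groups that did not overlap, so that their separation is only a description. ZNF79, with 11 fingers and fewer matching KRAB positions than the profile needs, lies on chromosome 9 from 130186653 to 130207651 on the plus strand of GRCh37 (hg19). In the BRD9 KO libraries it had 8.62 and 8.57 CPM, in the LacZ controls 4.84 and 5.94 CPM. Its log2 fold change was 0.67 with an SE of 0.15 (edgeR adjusted p = 0.00113), and both knockout libraries lay above both controls. ZNF416, a KRAB protein with 11 fingers, stood at 7.90 and 10.2 CPM against 5.77 and 5.70 CPM, a rise of 0.65 with an SE of 0.15 (edgeR adjusted p = 0.00184, range from 6.46e-05 to 0.0772 with the highest on the TPM scale, where it did not pass). The knockout replicates differed more from each other than the controls did, without overlap. ZNF296, with 6 fingers and no KRAB match, stood at 8.16 and 8.70 CPM against 5.71 and 5.16 CPM, a rise of 0.63. ZNF239, which encodes the DNA- and RNA-binding protein MOK2 with 9 fingers, stood at 14.4 and 14.1 CPM against 10.2 and 8.64 CPM, a rise of 0.61 with an SE of 0.11 (edgeR adjusted p = 0.000167). For ZNF79, ZNF296 and ZNF239, chosen for groups without overlap, the groups were apart by more than the spread of their replicates. For ZNF416 the gap between the groups in CPM was smaller than the spread of its knockout replicates.

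The 4 other members among the 8 largest rises lie on chromosome 19 or 16. ZNF542, annotated as a transcribed pseudogene, stood at 12.8 and 13.1 CPM against 8.96 and 8.82 CPM, a rise of 0.54. ZNF417, with a KRAB match and 12 fingers, stood at 18.1 and 15.3 CPM against 12 and 11.3 CPM, a rise of 0.52. On the log2(TPM + 1) scale this came to 0.21 and did not pass (limma adjusted p = 0.273, range from 1.75e-06 to 0.273 over the alternatives). ZNF667, with a KRAB match and 14 fingers, stood at 34.6 and 36.1 CPM against 26.3 and 23.9 CPM, a rise of 0.49, and its exons overlap those of ZNF667-AS1 on the opposite strand. ZNF267, also with 14 fingers and a KRAB match, stood at 25.2 and 23.8 CPM against 16.9 and 18.2 CPM, a rise of 0.48 that did not pass on the log2(TPM + 1) scale (limma adjusted p = 0.1, range from 2.43e-08 to 0.102). Reads of overlapping genes on opposite strands cannot be told apart with a kit that does not mark strand, as is the case for the version named in the methods.

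Among the falls, 2 of the 3 largest were transcribed pseudogenes. ZNF815P, on chromosome 7 from 5862838 to 5887374 (plus strand), stood at 1.95 and 2.02 CPM in the BRD9 KO libraries and at 3.58 and 3.84 CPM in the controls, a log2 fold change of -0.90 with an SE of 0.23 (edgeR adjusted p = 0.00349). It did not pass with DESeq2 (adjusted p = 0.0841, range from 0.000832 to 0.0841 over the alternatives). ZNF204P, on chromosome 6, stood at 8.52 and 7.04 CPM against 14.5 and 13.3 CPM, a change of -0.83 with an SE of 0.12 (edgeR adjusted p = 1.23e-05). The counts of a pseudogene can include reads of its coding relatives that the quantification divides by a model. The uncertainty of this division, a posterior standard deviation, was at most 3.71% of the count for ZNF815P and 0% for ZNF204P. What such reads add to the changes was not tested.

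ZNF333 and ZNF862 were the largest falls among the coding members. ZNF333, a KRAB protein with 10 fingers on chromosome 19, stood at 3.85 and 3.67 CPM against 6.50 and 7.38 CPM, a log2 fold change of -0.88 with an SE of 0.16 (edgeR adjusted p = 0.000232). Per length its levels were 2.08 and 1.75 TPM against 5.02 and 5.47 TPM, and the change on the log2(TPM + 0.1) scale was larger, at -1.41 (limma). TPM divides by an effective length that the authors' tables estimate in each library, and the cause of the larger value was not tested. ZNF862, whose protein matched KRAB but no C2H2 finger, stood at 8.16 and 9.06 CPM against 14.6 and 12.2 CPM, a change of -0.64 (edgeR adjusted p = 0.000214). In both genes, chosen for groups without overlap, the groups were apart by more than the replicates were.

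The remaining falls of the naming rule were smaller, and 3 of them did not pass with DESeq2. ZNF775, with 11 fingers, fell by 0.50 on the log2 scale, from 20.8 and 21.5 CPM in the controls to 15.3 and 14.6 CPM, and its exons overlap those of REPIN1 on the same strand. On the log2(TPM + 1) scale it did not pass (limma adjusted p = 0.0721, range from 1.15e-06 to 0.0723). ZNF519 (-0.48), ZNF232 (-0.41) and ZNF548 (-0.39) passed with edgeR at adjusted p values of 0.0164, 0.0487 and 0.0331 and not with DESeq2, at 0.195, 0.322 and 0.253. Their adjusted p ran from 0.0105 to 0.346, from 0.0368 to 0.322 and from 0.0221 to 0.253 over the alternatives. The calls of ZNF519 and ZNF548 also ended without BRD9 KO replicate 1 (0.103 and 0.206), LacZ control replicate 1 (0.0822 and 0.0589) or LacZ control replicate 2 (0.0893 and 0.24), and that of ZNF232 without any 1 library (0.112 or above).

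**Figure D3:**
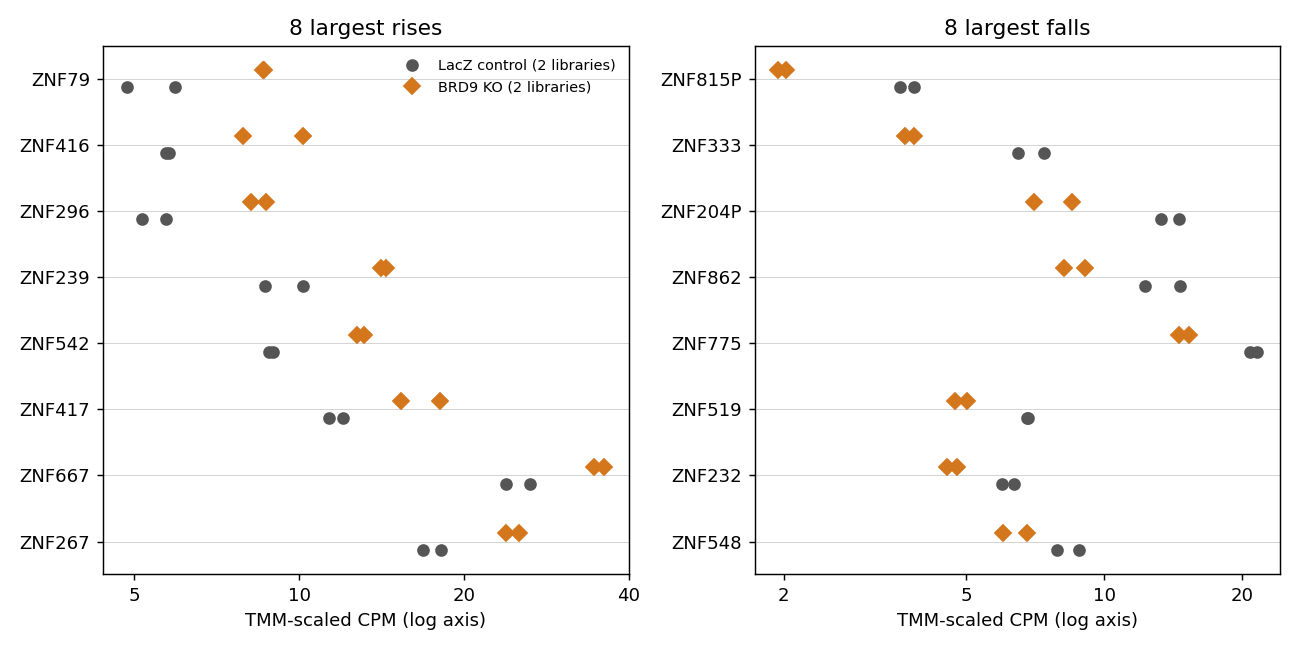
TMM-scaled CPM (log axis) of the 8 members with the largest rises (left) and the 8 with the largest falls (right) among called members, with 1 point per library, orange diamonds for the 2 BRD9 KO libraries and grey circles for the 2 LacZ controls. In each of the 16 genes both knockout libraries lie on one side of both controls, which the choice of the genes required. The gap is widest for ZNF815P, ZNF333 and ZNF204P.

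The smallest p-values among the remaining members were found at levels above the median of the expressed ZNF genes. ZNF106 stood at 2100.7 and 2097.2 CPM in the BRD9 KO libraries and at 1575.0 and 1562.8 CPM in the controls, a rise of 0.42 with an SE of 0.01 (edgeR adjusted p = 4.97e-18). This is 133.8% of the control level, and the replicates of each group lay close together. Exons of ZNF106 overlap those of CAPN3 on the opposite strand. ZNF521, with 27 fingers a cofactor that holds back differentiation of progenitor cells, stood at 47.6 and 45.6 CPM against 63.0 and 58.6 CPM, a fall of 0.38 on the log2 scale with an SE of 0.05 (edgeR adjusted p = 5.17e-06). ZNF317, a KRAB protein, rose by 0.35, from 41.5 and 44.6 CPM to 54.9 and 55.2 CPM. ZNF146, a protein made almost only of fingers, rose by 0.26, from 95.4 and 97.0 CPM to 117.0 and 112.4 CPM, which did not pass on the TPM scale (limma adjusted p = 0.0587, range from 3.44e-12 to 0.059). ZNF385A, which encodes a p53-associated RNA-binding protein, rose by 0.24, and ZNF664 by 0.16, the latter with exons that overlap CCDC92 on the opposite strand.

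Of the 5 other most abundant members 3 did not pass the test. ZNF207 stood at 251.8 and 244.5 CPM against 242.5 and 257.2 CPM, with a log2 fold change of -0.01 and an SE of 0.03 (edgeR adjusted p = 0.809), and its groups overlapped. ZNF638 had a value of 0.00 with an SE of 0.03 (edgeR adjusted p = 0.975) and overlapping groups. ZNF706 had a value of -0.10 with an SE of 0.05, which did not pass (edgeR adjusted p = 0.0983) although both knockout libraries, at 47.9 and 48.9 CPM, lay below both controls, at 52.1 and 51.7 CPM. ZNF217 and ZNF326 rose by 0.11 and 0.16 (edgeR adjusted p = 0.000222 and 0.000261).

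Members with known functions in silencing, protein synthesis and transcription, singled out after their values were seen, included rises, falls and genes that did not pass. ZNF445, which guards genomic imprints, was at 39.7 and 42.7 CPM against 47.2 and 45.5 CPM, a fall of 0.17 in log2 units (edgeR adjusted p = 0.016). ZNF274, which brings SETDB1 to the coding ends of other ZNF genes, was at 32.1 and 35.8 CPM against 37.5 and 35 CPM and did not pass (-0.10, edgeR adjusted p = 0.252). ZNF91, a silencer of SVA retrotransposons, had a value of 0.09 with an SE of 0.08 and ZNF10, the source of the KRAB domain of many synthetic repressors, 0.05 with an SE of 0.10, and neither passed. ZNF410, an activator of the remodeller gene CHD4, fell by 0.19 on the log2 scale, from 37.9 and 37.3 CPM to 33 and 33.1 CPM (edgeR adjusted p = 0.0156). ZNF451, a SUMO ligase, fell by 0.14. ZNF622, a factor of large ribosomal subunit maturation, rose by 0.36, from 20.7 and 21.1 CPM to 26.5 and 27.2 CPM (edgeR adjusted p = 0.000448). ZNF598, a ubiquitin ligase that senses collided ribosomes, had a value of 0.01 with an SE of 0.05, and ZNF143, an activator of small nuclear RNA genes, -0.17 with an SE of 0.10, and neither passed.

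By protein class, the called members were spread over all classes with more than 5 genes. Of the 209 KRAB members 32 were higher and 13 lower (21.5%), with a median log2 fold change of 0.03. Of the 132 without a KRAB match 28 were higher and 19 lower (35.6%), also with a median of 0.03. The KRAB counts were 24 and 7 without BRD9 KO replicate 1, 20 and 4 without LacZ control replicate 1, and 19 and 4 without LacZ control replicate 2. Within bands of count the shares were 14.9% and 15.4% under 200 counts, 19.5% and 30.8% from 200 to 500 counts, and 48.4% and 50% from 500 counts. KRAB members were the larger part of the band under 200 counts (101 of 134), and the difference between the classes was not tested. Among the members without a KRAB or SCAN match, 17 rose and 11 fell of the 85 with 5 or more fingers. Of the 40 with fewer, 8 rose and 6 fell. Of the 11 members that matched the SCAN pattern, which may miss other SCAN proteins, 4 rose and 3 fell. ZNF263 (0.43), ZNF202 (0.39), ZNF75A (0.33) and ZNF394 (0.27) were higher, and ZNF397 (-0.20), ZNF445 (-0.17) and ZNF496 (-0.17) lower, and in all 11 the groups did not overlap. The share called was 63.6%, against 43.8% of the tested genes with at least 3 TPM, of which 71.9% had groups that did not overlap, and with 11 genes the difference was not tested. Of the 7 annotated pseudogenes ZNF542 (0.54), ZNF252P (0.26) and ZNF271 (0.18) rose and ZNF815P and ZNF204P fell. This share, 71.4% against the same 43.8%, was not tested either. None of the 5 members without a matching gene model was called.

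**Figure D4:**
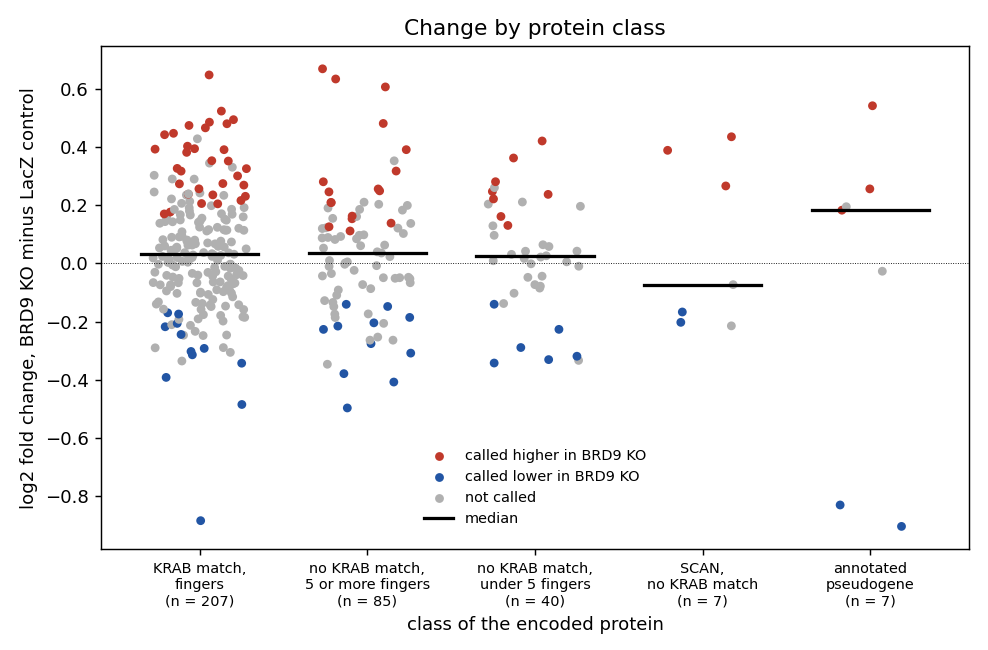
Log2 fold change, BRD9 KO minus LacZ control, of each member by class of the encoded protein, with the median of the class as a black line and the edgeR call as colour. The medians of the 3 large classes lie between 0.02 and 0.04 and the spread is similar, while 2 of the 7 pseudogenes lie at -0.90 and -0.83. The 2 KRAB members without a finger match and the 5 members without a matching gene model are not drawn.

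By position, 151 of the 348 members with coordinates lay on chromosome 19, and 82.1% of these had a KRAB match, against 43.1% elsewhere. On chromosome 19, 23 members rose and 11 fell (22.5%), with a median log2 fold change of 0.06. These counts were 17 and 5 without BRD9 KO replicate 1, 23 and 6 without BRD9 KO replicate 2, and 14 and 5 without either LacZ control. The 796 other genes of chromosome 19 with at least 3 TPM had 148 rises and 201 falls (43.8%) and a median of -0.03. On the other chromosomes 40 members rose and 23 fell of 197 (32.0%), with a median of 0.01. The median mean count was 192.5 for the members on chromosome 19, 505.9 for its other genes and 353.2 for the members elsewhere. The share called rose with the count, and what this adds to these shares was not tested. Of the 21 chromosomes with members, 7 had rises and no falls, 4 falls and no rises, 8 both and 2 neither. On chromosome 16, 8 members rose and none fell of 25, on chromosome 12, 4 and none of 12, and on chromosome 11, 4 and none of 6, among them ZNF195, a KRAB protein at 35.5 and 36 CPM against 27.5 and 26.9 CPM (0.39, edgeR adjusted p = 3.95e-05). On chromosome 6, none rose and 3 fell of 8, on chromosome 3, none and 2 of 11, on chromosome 17, none and 2 of 9, and on chromosome 18, 1 rose and 3 fell of 8. On chromosome 7, 7 rose and 6 fell of 29. Of all tested genes with at least 3 TPM, 24.0% were called higher and 19.9% lower. Except for chromosome 19, the other genes of these chromosomes were not counted, and differences between chromosomes were not tested.

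Neighbouring members were grouped into runs of at least 3 with gaps of at most 250 kb, which gave 29 runs with 205 members, 15 of them on chromosome 19. In runs 36 members rose and 17 fell (25.9%), and outside them 27 and 17 of 148 (29.7%). Of all tested genes with at least 3 TPM 43.8% were called. The largest run, at chr19:57702868-58992597 near the end of the long arm, held 33 members, 29 of them with a KRAB match. In it 6 rose and 2 fell, 25 of 33 log2 fold changes were above 0 and the median was 0.11. ZNF416, ZNF417 and ZNF256 (0.48) rose there, and ZNF548 and ZNF446 (-0.29) fell, so that called neighbours moved in both directions.

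Of the 29 runs 3 lay wholly above 0 and 2 wholly below it, described here after their values were seen. At chr12:133494892-133791418, at the end of the long arm, all 7 values of the KRAB members were above 0, with a median of 0.18, and ZNF605 (0.39, edgeR adjusted p = 6.57e-05) and ZNF84 (0.21) rose. The other 5, ZNF26, ZNF140, ZNF268, ZNF10 and ZNF891, lay between 0.00 and 0.20 and did not pass. At chr10:43932289-44144329 all 4 values were above 0, with a median of 0.32, and ZNF239 alone passed. ZNF485 (0.43) did not pass, nor did ZNF32 (0.21) and ZNF487 (0.03). At chr7:6655241-6746578 all 3 values were above 0, with a median of 0.20, where ZNF316 (0.23) and ZNF12 (0.20) rose and ZNF853 (0.09) did not pass. At chr19:40490041-40596850 all 3 values were below 0. ZNF780B stood at 31.9 and 29.9 CPM against 38.5 and 37.3 CPM (-0.29, edgeR adjusted p = 0.00073) and ZNF546 at 8.16 and 8.45 CPM against 10.5 and 10.6 CPM (-0.34, edgeR adjusted p = 0.0247). Their paralog ZNF780A was at 29.1 and 28.8 CPM against 29.1 and 30.5 CPM (-0.04) and did not pass. At chr6:27326031-27440897 all 3 values were below 0, and ZNF204P fell, while ZNF184 (-0.07) and ZNF391 (-0.01) did not pass.

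Of the 29 runs, 17 had most of their values above 0, those wholly above it included, and 2 were split evenly. Over the 205 members in runs 124 values were above 0. Beside the 2 runs wholly below 0, most but not all values were below 0 in 8 others, of which those with the lowest medians follow. At chr19:55987984-56156989, with 7 members and no KRAB match, ZNF580 (-0.34), ZNF581 (-0.33) and ZNF865 (-0.22) fell and the median was -0.13. ZNF580 and ZNF581 share exon sequence with each other and with CCDC106 on the same strand, and are not independent measurements. In the pericentromeric clusters of chromosome 19, the run at chr19:21106028-22034927 had 2 falls among 9 KRAB members, ZNF431 (-0.30) and ZNF714 (-0.22), with a median of -0.05, and the run at chr19:23404401-24312770 had 5 of 6 values below 0, a median of -0.12 and no call. At chr7:63980256-64467062, 4 of 5 values were below 0, with a median of -0.10, and ZNF680 (-0.31) fell. At chr3:44473197-44702283, 3 of 4 values were below 0, with a median of -0.12, and ZNF445 fell. Paralogs of one run can share sequence, so that their counts may not be independent of each other, which was not tested.

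**Figure D5:**
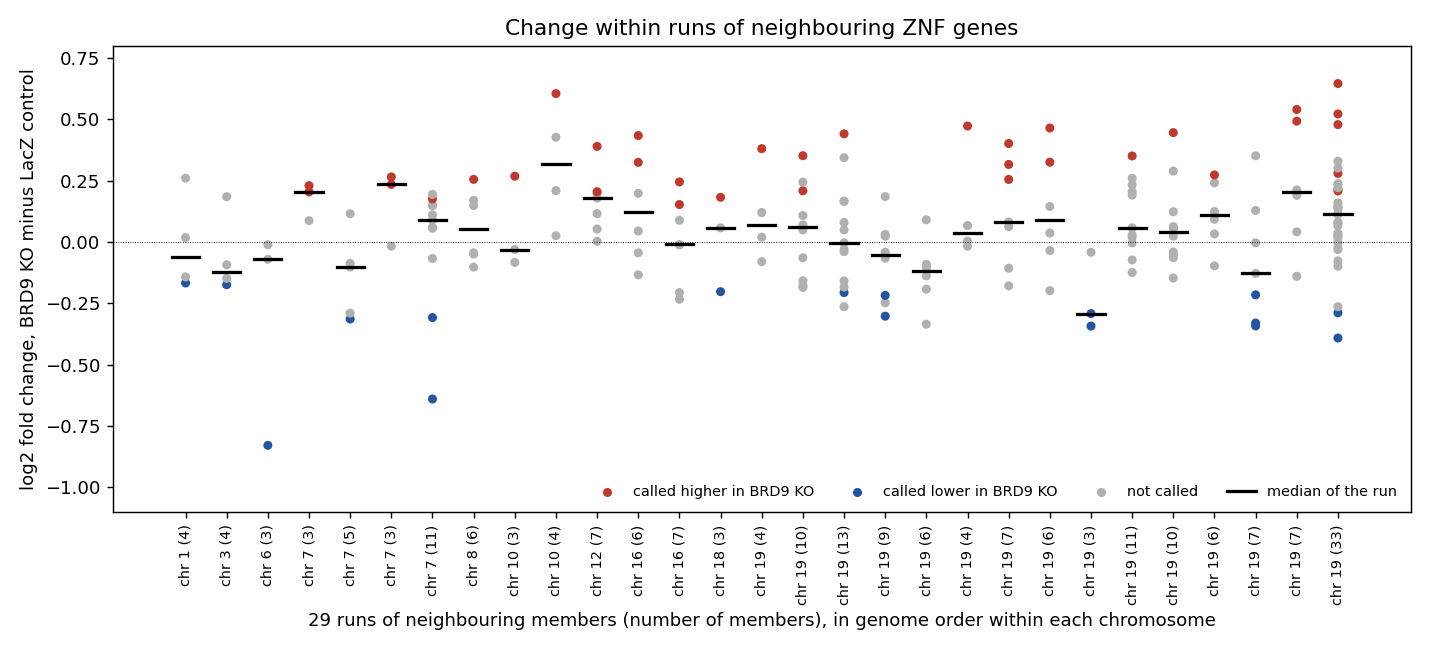
Log2 fold change, BRD9 KO minus LacZ control, of the 205 members in 29 runs of neighbouring genes, with 1 column per run labelled by chromosome and number of members, the median as a black line and the edgeR call as colour. The run of 7 on chromosome 12 lies wholly above 0 and the run of 3 with ZNF780B wholly below it, while the run of 33 on chromosome 19 spreads from -0.39 to 0.65.

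Reads shared between similar genes were measured in one way by the quantification. The authors' tables give a posterior standard deviation for each count, the uncertainty from dividing reads between similar transcripts. Its largest value over the 4 libraries had a median of 0.24% of the count over the members. It exceeded 10% for 4 members, ZNF8, ZNF595, ZNF709 and ZNF177, none of which was called. Exons of 102 members overlap those of another tested gene, and 28 of them were called (27.5%). Of the 251 others 69 were called (27.5%), but these include the 5 members without a matching gene model, whose overlap is unknown. What shared or overlapping sequence adds to the calls was not tested.

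Of the genes for the partners through which KRAB proteins act, some rose and some fell, at a share close to that of genes of their level. Of 15 corepressor genes, all tested, 3 were higher and 5 lower, 53.3% called, against 56.4% of the tested genes from 30 TPM (the median of the 15 was 60.6 TPM). Without LacZ control replicate 1 the counts were 1 and 5. TRIM28, the scaffold that binds KRAB, stood at 363.2 and 365.9 CPM in the BRD9 KO libraries and at 326.7 and 333.8 CPM in the controls, a rise of 0.14 with an SE of 0.02 (edgeR adjusted p = 5.94e-06). SETDB1, the methyltransferase, was at 39.7 and 39.7 CPM against 44.8 and 49.3 CPM, a change of -0.25 (edgeR adjusted p = 0.00142), and its partner ATF7IP at 48.2 and 49.4 CPM against 65.2 and 63.5 CPM, a change of -0.40 (edgeR adjusted p = 6.93e-07). In both genes the knockout libraries lay below both controls. Of the HP1 genes, CBX5 fell by 0.25 on the log2 scale (adjusted p of edgeR = 4.91e-10, range from 1.98e-23 to 0.093) and CBX1 by 0.23, whereas CBX3, at 0.03, did not pass. The remodeller CHD3 fell by 0.35, and the deacetylase HDAC1 and MORC2, an effector of the HUSH silencing complex, rose by 0.09 and 0.16. HDAC2, DNMT1, SMARCAD1 and the HUSH genes FAM208A, MPHOSPH8 and PPHLN1 did not pass, with values between -0.06 and 0.09. On the log2(TPM + 1) scale of limma the calls of CBX5 (-0.13), TRIM28 (0.11, adjusted p = 0.158), SETDB1 (-0.25, adjusted p = 0.0697), HDAC1 (0.09) and MORC2 (0.04) ended, and those of ATF7IP, CBX1 and CHD3 held. With DESeq2 the rises of HDAC1 (adjusted p = 0.0862) and MORC2 (adjusted p = 0.259) ended. The edgeR call of SETDB1 ended without LacZ control replicate 2 (adjusted p = 0.0641), that of HDAC1 without LacZ control replicate 1 (0.0503), and that of MORC2 without any 1 library (0.0601 or above) and with library totals (0.0551) or at least 1 CPM in all libraries (0.0502).

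Other zinc finger families had values of the same small size, with few members each. Of 14 ZFP genes with at least 3 TPM 4 rose and 4 fell (57.1%), of 19 ZSCAN and ZKSCAN genes 2 and 3 (26.3%), of 36 ZBTB genes 6 and 5 (30.6%), and of 14 KLF and SP genes 3 and 2 (35.7%), against 43.8% of all tested genes at that level. Their medians lay between -0.04 and 0.01 on the log2 scale. Of the 211 ZNF models under 3 TPM 64 passed the filter on low counts, and 2 were called higher and 4 lower (9.4%). Of all tested genes at any level 38.6% were called, and the share among tested genes under 3 TPM was not computed. The filter on low counts could keep a gene of such low level through the group in which it was high.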

How the data were processed

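G401 RNA-seq libraries (2 BRD9 KO, 2 LacZ control) were analysed. The authors used STAR for alignment (hg19) and RSEM for quantification, which gave the deposited expected count (estimated count), its posterior standard deviation, the effective length, and the TPM of each gene model. DESeq2 is named in the submitters' processing notes too, all without versions. RSEM divides reads that match several genes by a model and applies no scaling between libraries. Expected counts were rounded.

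Groups were compared with edgeR 4.0.16 under R 4.3.3 (quasi-likelihood test, TMM scaling, filterByExpr, robust, two-sided, Benjamini-Hochberg over 15288 genes). CPM values are TMM-scaled, and a positive fold change means higher in BRD9 KO. Each SE was derived as the absolute log2 fold change divided by the square root of the F statistic of the quasi-likelihood test. Replicates differed beyond sampling noise (chi-square per degree of freedom 1.59 and 1.62). The methods call them biological; the labels name no separate cultures, so that the spread behind each p-value may be technical.

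Positions, exon overlaps (bedtools 2.31.1) and protein features, counted in coding transcripts translated here, come from GENCODE v44 on GRCh37, in place of the planned RefSeq proteins, which were not used. Promoters are from RefSeq (GRCh38.p14). The script was tested on simulated data.

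The members and gene lists were chosen with earlier results of these data known. A gene of the corepressor list is not reported here. Named were the 8 largest rises and falls among called members whose groups did not overlap, the 6 smallest p of the rest, the 6 most abundant, 3 on each side of the TPM limit, 4 corepressors by p, and BRD9; further genes were picked with their values in view. As alternatives, DESeq2 1.42.0, limma 3.58.1 on log2(TPM + 1) and log2(TPM + 0.1), RLE size factors, library totals, other filters (none, or at least 1 CPM in all 4 libraries), an adjusted p under 0.01, TPM limits of 1 and 10, a replicate block, each library left out, and members without exon overlap or with a posterior standard deviation of at most 10% were tried. The bands of TPM and count and the sum without ZNF106 were chosen after seeing the data.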

Additional observations from a re-analysis of the deposited data

How the results depend on the processing

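The counts of called genes depended on the test more than on the scaling. DESeq2 called 30 members higher and 9 lower, 16 and 3 of the KRAB members, 11 and 3 of those on chromosome 19, and 1 corepressor gene higher. Limma on log2(TPM + 1) and on log2(TPM + 0.1) called 17 and 10 members, 6 and 3 KRAB members, 6 and 3 on chromosome 19, and 0 and 3 corepressor genes. An adjusted p under 0.01 left 38 and 15 members, 18 and 3 KRAB members, and 13 and 4 on chromosome 19. A limit of 10 TPM left 171 members, 38 higher and 22 lower. With each library left out in turn, edgeR called 39 to 54 members higher and 15 to 27 lower, 19 to 31 and 4 to 9 KRAB members, 14 to 23 and 5 to 6 on chromosome 19, and 1 to 2 and 4 to 5 corepressor genes, with fewest members without LacZ control replicate 2; the lone library of a group is then assumed to vary like the other group. All 39 members called with DESeq2 and 25 of the 27 called with limma were among the 97 of the edgeR test, in the same direction, and no member was called in the opposite direction under any of these settings. The median log2 fold change of the members stayed between 0.02 and 0.06 under the alternatives. RLE size factors, library totals, no filter on low counts, and at least 1 CPM in all 4 libraries kept the counts within 1.5 times, as did a limit of 1 TPM, a posterior standard deviation of at most 10% and members without exon overlap. Of the values of single named genes under the alternatives, 445 kept their side of the threshold and 36 lost the call, and no call reversed. The 445 include values of named genes that were not called at the outset and had no call to lose. Some of these changed sign, as ZNF837 did (from -0.46 to 0.15).

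The replicate numbers did not pair the samples: the deviations of the libraries from their group means correlated at -0.05 over 15288 genes between the replicates of one number. With the number as a block 101 members were called, 64 higher and 37 lower, all 97 of the unblocked calls among them; for KRAB members it was 32 and 15, on chromosome 19 24 and 11, and for the corepressor genes 3 and 5. BRD9 was at -0.86 with the block as without. At a median of 257.5 counts the members had an SE of 0.09; the smallest change called was 0.11 and the largest not called 0.43 (log2, absolute), so that changes well above that SE also went uncalled.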
